A study of Mus musculus with 10 samples.

Results

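SKO-L80A+Vc, mouse embryonic fibroblasts (MEFs) infected with retroviruses for Sox2, Klf4 and the Oct4 mutant L80A and kept in embryonic stem cell medium with vitamin C at 50 µg/ml, was compared with SKO-L80A, MEFs given the same viruses and the same medium without vitamin C. These are 2 of the 10 samples of the study and 4 of the 20 columns of its table of gene signals. The comparison was chosen by condition, not by any measured value, and takes in all 21965 genes of the table. The assay was ATAC-seq, whose transposase inserts adapters where DNA is open, so that signal stands for chromatin accessibility. The other conditions used below for context are SKO-L80A+Ga (the SKO-L80A viruses with one for Gadd45a), SKO (Sox2, Klf4 and unmutated Oct4), Klf4 (the Klf4 virus alone) and Flag, the control virus condition. All cells were MEFs of E13.5 embryos, labelled ICR, and per the labels' protocols the fibroblasts carried a GFP transgene under the Oct4 promoter. Factors were delivered in pMXs vectors, about 50000 living cells went into each library, and no day of harvest is given in the labels. L80A is thus present in both SKO-L80A+Vc and SKO-L80A, and unmutated virus-borne Oct4 in neither. The infected cells are a mixture, so a gene opened in few cells and a gene opened weakly in many cannot be told apart.

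Vitamin C (ascorbate) keeps the iron of Fe(II)- and 2-oxoglutarate-dependent dioxygenases in its reduced state. These enzymes include the TET proteins, which oxidise 5-methylcytosine, the JmjC histone demethylases, which remove methyl groups from histone lysines, and the prolyl and lysyl hydroxylases, which act on collagen and on the hypoxia factor HIF. Ascorbate is known to raise the yield of induced pluripotent cells from mouse fibroblasts. The L80 residue lies in the linker between the DNA-binding domains of Oct4, a stretch known to matter for reprogramming.

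Each condition has 1 library with 2 columns of signal, taken as repeat measures of 1 sample, so there is no replicate error, no test was made and every difference is described by its size. A difference is the log2 signal in SKO-L80A+Vc minus that in SKO-L80A, with 0.138 added to each signal as a pseudocount, for column 1 with column 1 and column 2 with column 2. It is called relative when the median of all genes in that column pair has been subtracted. A gene counts as past a fold when the mean of both relative differences reaches it, both have 1 sign, and the mean signal in the higher condition is at least 6.92, the median of the whole table. Of the 21965 genes, 12484 reached that minimum.

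The widest difference lay in the overall signal. The columns summed to 210990 and 196742 in SKO-L80A+Vc, against 280334 and 319763 in SKO-L80A, within a range of 112439 to 370390 over the whole table. The all-gene median signal was 6.47 and 6.57 in SKO-L80A+Vc, against 8.84 and 10.9 in SKO-L80A, a log2 difference of -0.34 in pair 1 and -0.62 in pair 2. As signal, 11627 of the 12484 genes at the minimum (93.1%) had both SKO-L80A+Vc columns below both SKO-L80A columns, and 8 (0.0641%) had both above. SKO-L80A+Ga, set against the same SKO-L80A columns, had all-gene medians of -0.10 and -0.40. How columns were scaled is not given in the sources used, so a general difference in accessibility and a difference in depth or scaling cannot be told apart, and the genes below are described relative to all genes.

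The size of the difference depended on how open a gene was in Flag, a library outside the comparison. In the 3 deciles of genes with the lowest Flag signal, the uncentred medians lay between -0.02 and 0.07 in pair 1 and between -0.14 and -0.01 in pair 2. They were -0.32 and -0.57 in decile 4, and -0.43 and -0.70 in decile 5. Open genes thus had lower signal in SKO-L80A+Vc than in SKO-L80A, and relative to all genes the closed ones read as higher. Decile 1 had median signals of 0.029 in SKO-L80A+Vc and 0.031 in SKO-L80A, under the pseudocount of 0.138, which holds the log2 difference near 0 whatever the ratio. Decile 2 had 0.254 and 0.238, where the pseudocount still shrinks the difference. These 2 deciles therefore cannot show whether closed genes differed. In decile 3 the medians were nearly equal above the pseudocount, at 0.886 and 0.913. Over the genes at the minimum alone the uncentred medians were -0.42 and -0.71, and the relative ones -0.07 and -0.09. SKO-L80A+Ga showed -0.06 and -0.39 in decile 4 and -0.08 and -0.49 in decile 5 against the shared SKO-L80A columns.

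**Figure D1:**
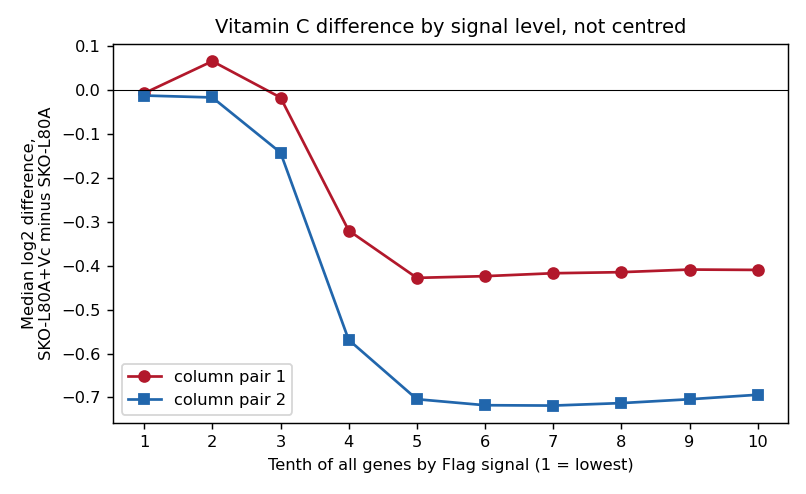
Median log2 difference from SKO-L80A, not centred, (y axis, SKO-L80A+Vc minus SKO-L80A), in 10 bins of Flag signal from lowest to highest (x axis), with a line for each column pair. Both lines lie near 0 in the first bins and pass to about -0.4 in pair 1 and -0.7 in pair 2 from bin 5 on. In bins 1 and 2 the pseudocount draws the difference towards 0.

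Beyond the overall level the profiles were close. No gene at the minimum was 2-fold higher in SKO-L80A+Vc (0%), and 2 were 2-fold lower (0.016%). At 1.5-fold, 15 genes were higher (0.12%) and 59 lower (0.473%), so few that a short gene list can hold none. For comparison, 674 genes (5.40%) were 1.5-fold apart between both columns of SKO-L80A+Vc itself and 535 (4.29%) between both columns of SKO-L80A, on single rather than averaged differences. Columns of equal number were closer to each other than the columns of 1 condition: across genes at the minimum the log2 signals of SKO-L80A+Vc and SKO-L80A correlated at 0.973 for column 1 and 0.969 for column 2, whereas both columns of SKO-L80A+Vc correlated at 0.933 and both of SKO-L80A at 0.946. The relative differences of pair 1 and pair 2 correlated at 0.28 (Pearson, across 12484 genes, which are not independent replicates). With columns crossed, 1 with 2, the differences correlated at -0.48, so the sign of this correlation depended on pairing by number. As paired, 1556 genes (12.5%) were higher and 6304 (50.5%) lower in both pairs. Only the genes at the edges of that cloud are thus past 1.5-fold. The balance of higher and lower genes followed the scaling: it was 15 to 59 as computed, 26 to 33 with the trend against mean signal removed, 28 to 15 after quantile normalisation and 0 to 5470 with no centring.

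**Figure D2:**
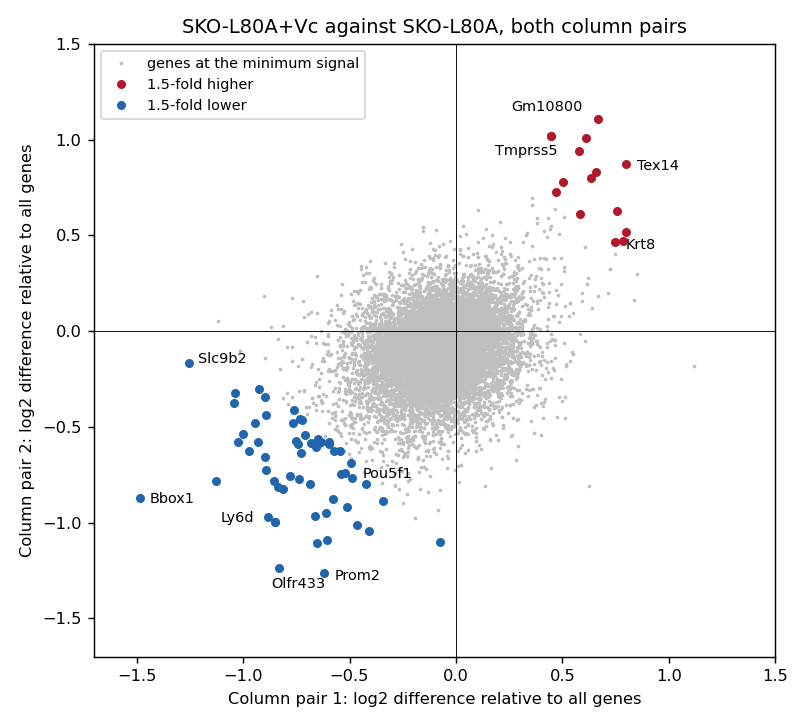
Relative log2 difference, SKO-L80A+Vc minus SKO-L80A, in column pair 1 (x axis) and column pair 2 (y axis) for the 12484 genes at the minimum signal (grey), with the 15 genes past 1.5-fold higher in red and the 59 lower in blue. Bbox1 lies farthest out on the lower side and Gm10800 and Tex14 on the higher side.

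The promoters of 3 genes that carry the results below are printed because they stand for the kinds of sequence found there: Bbox1, the lowest gene, Krt8, the epithelial gene past 1.5-fold, and Tex14, the germline gene past it. They run from 250 bases before to 50 after a RefSeq start in GRCm38.p6, the assembly of build mm10, 5′ to 3′ on the gene's strand: chr2:110305676-110305975 (minus) for Bbox1, whose listed start lies inside the gene span, chr15:102004293-102004592 (minus) for Krt8 and chr11:87404815-87405114 (plus) for Tex14. Capitals mark matches, on either strand, to these motifs: the Octamer, spelled ATGCAAAT, the AP-1 motif, spelled TGANTCA, the Sox motif, spelled ACAAAG, the Klf motif, spelled GGGTGGG, the promoter element spelled TATAAA, and the GC box, spelled GGGCGGG.
Bbox1: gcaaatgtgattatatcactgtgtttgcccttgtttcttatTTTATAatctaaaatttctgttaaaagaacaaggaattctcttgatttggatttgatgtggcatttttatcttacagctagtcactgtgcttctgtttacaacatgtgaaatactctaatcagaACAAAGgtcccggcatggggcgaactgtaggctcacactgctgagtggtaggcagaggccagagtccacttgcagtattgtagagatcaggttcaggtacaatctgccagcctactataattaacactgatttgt
Krt8: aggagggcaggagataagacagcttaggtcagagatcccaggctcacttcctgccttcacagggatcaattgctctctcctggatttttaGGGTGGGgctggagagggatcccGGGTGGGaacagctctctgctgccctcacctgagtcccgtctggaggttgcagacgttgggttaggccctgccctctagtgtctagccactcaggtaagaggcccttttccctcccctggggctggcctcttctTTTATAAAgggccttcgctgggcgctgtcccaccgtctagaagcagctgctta
Tex14: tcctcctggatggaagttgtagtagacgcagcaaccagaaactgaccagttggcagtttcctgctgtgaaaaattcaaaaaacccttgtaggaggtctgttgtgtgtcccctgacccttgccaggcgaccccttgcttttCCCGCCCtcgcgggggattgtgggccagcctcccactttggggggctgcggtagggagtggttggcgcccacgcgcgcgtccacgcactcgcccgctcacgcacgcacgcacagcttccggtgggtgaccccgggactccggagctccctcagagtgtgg
The Bbox1 window holds a TATAAA match on its minus strand and a Sox match, Krt8 holds 2 Klf matches and TATAAA matches on both strands that overlap, and Tex14 holds 1 GC box match on its minus strand. Of 13778 promoters of genes with 1 RefSeq entry, 17.1% hold the Sox motif, 13.7% the TATAAA element, 18.3% Klf, 34.5% the GC box, 7.13% AP-1 and 1.73% the Octamer. Their ratio of observed to expected CpG was 0.173 for Bbox1, 0.238 for Krt8 and 0.686 for Tex14. A match describes these letters only and not what the deposited signal was counted over, a window the sources used here do not give.

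The gene with the lowest relative difference of all 12484 was Bbox1 (ENSMUSG00000041660, GRCm38.p6 chromosome 2, 110264056 to 110314813). It encodes gamma-butyrobetaine dioxygenase, the last enzyme of carnitine synthesis and itself a 2-oxoglutarate dioxygenase that uses ascorbate. Its signal was 1.93 and 2.88 in SKO-L80A+Vc, against 7.20 and 8.33 in SKO-L80A. Both SKO-L80A+Vc columns lay below both columns of SKO-L80A, of the Gadd45a condition (4.13 and 4.43) and of SKO (6.42 and 5.10), and above Flag (0.416 and 0.599). Of all genes at the minimum, 93.1% lay below in this way against SKO-L80A and 57.0% against the Gadd45a condition. The relative differences were -1.48 and -0.87, a mean of -1.18 or 2.26-fold lower, and -1.14 with the trend removed. Bbox1 was thus nearly without signal in Flag fibroblasts, and of the combined-factor conditions named here SKO-L80A+Vc had the least. The SKO-L80A+Vc columns, which sum to 210990 and 196742, also had the lowest sums of those conditions. The share of all genes below both SKO columns is not given here.

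Olfr433, an olfactory receptor gene on chromosome 1, was the other gene past 2-fold. It had a signal of 3.14 and 1.80 in SKO-L80A+Vc, against 7.28 and 6.89 in SKO-L80A, with relative differences of -0.83 and -1.24. Its Flag signal was 2.86 and 4.37, so the SKO-L80A+Vc columns lay within the range of the control fibroblasts or under it. Just short of 2-fold were 6720489N17Rik, a gene of unstated function here, at a mean of -0.95, and Prom2 at -0.94.

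Prom2 encodes prominin 2, a membrane protein of epithelial protrusions, and Ly6d a surface protein of keratinocytes and B cell precursors. Prom2 had a signal of 4.35 and 2.98 in SKO-L80A+Vc, against 8.63 and 11.3 in SKO-L80A, and 14.0 and 19.7 in the library given Klf4 alone. Ly6d had 3.74 and 2.31 in SKO-L80A+Vc, against 8.94 and 7.21 in SKO-L80A, a mean relative difference of -0.93. For both genes the SKO-L80A+Vc columns lay below every SKO-L80A and SKO column, and for Ly6d above Flag (1.31 and 2.22). Of all genes at the minimum, 93.1% had both SKO-L80A+Vc columns below both SKO-L80A columns, and the share below both SKO columns is not given here. With Gadd45a in place of vitamin C, Prom2 had 10.1 and 9.15 and Ly6d 5.87 and 4.001.

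Other lower genes came from varied families. Diras1, a small Ras-like GTPase of neural tissue, had a signal of 7.82 and 6.66 in SKO-L80A+Vc, against 17.2 and 17.5 in SKO-L80A, with relative differences of -0.78 and -0.76. Gfap, the intermediate filament protein of astrocytes, had 4.60 and 5.13 in SKO-L80A+Vc, against 9.52 and 13.9 in SKO-L80A, a mean of -0.74. Lamc3, a laminin chain of basement membranes, had 3.99 and 3.799 in SKO-L80A+Vc, against 8.61 and 10.2 in SKO-L80A, a mean of -0.76. In these 3 genes the columns of SKO-L80A+Vc lay below those of SKO-L80A, as in 93.1% of genes at the minimum. With Gadd45a in place of vitamin C, Lamc3 had 4.92 and 5.50, relative differences of -0.68 and -0.47 from the same SKO-L80A columns. Those of Diras1 were 0.00 and -0.14, and those of Gfap 0.11 and -0.50. Among neural genes Gfap was the only member of 13 at the minimum past 1.5-fold, and the 20 neural genes listed had medians of -0.03 and 0.06.

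Zfp106 and Zfp994, zinc finger genes, were both at -0.82, and Zc4h2, a zinc finger gene of neural development, also at -0.82. Zfp106 had a signal of 5.72 and 4.32 in SKO-L80A+Vc, against 12.9 and 11.96 in SKO-L80A and 9.62 and 14.8 in Flag, so here the SKO-L80A+Vc columns lay under the control fibroblasts as well. Of 304 Zfp genes at the minimum 3 were past 1.5-fold lower and 0 higher, beside 0.473% and 0.12% of all genes at the minimum, with medians of -0.08 and -0.08 over all 395 Zfp genes measured. Cacna2d4, a calcium channel subunit gene, and Lrtm2, which lies within its span, had nearly the same values in every column and a mean of -0.92. 1700007K13Rik, at -0.61, and Mrps2, at -0.63, were the other pair of the 59 lower genes within 15% of each other in all 20 columns. Pik3r6 and Mfsd6l, both with a signal of 4.29 in column 1 of SKO-L80A+Vc, and Gm6569 and Mroh5, which overlap on chromosome 15, were also alike but outside that tolerance, so the 59 genes stand for 57 separate signals or fewer.

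On the higher side the largest value belonged to Gm10800, a predicted gene, at 21.8 and 31.2 in SKO-L80A+Vc, against 17.4 and 22.2 in SKO-L80A, a mean of 0.89. Gm10801, a similar predicted gene, stood at 0.81. Flag had 25.6 and 27.7 for Gm10800, so its signal in SKO-L80A+Vc lay near that of control fibroblasts. Whether reads from near-identical copies add to these 2 genes was not tested.

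Tex14 (ENSMUSG00000010342, chromosome 11, 87405013 to 87555823), needed for the intercellular bridges of germ cells, was the highest gene of known function. It had a signal of 22.6 and 19.04 in SKO-L80A+Vc, against 16.4 and 15.9 in SKO-L80A. For context it had 16.0 and 10.02 with Gadd45a, 19.98 and 12.7 in SKO and 9.58 and 11.8 in Flag. Both SKO-L80A+Vc columns lay above both SKO-L80A columns, which held for only 8 genes at the minimum. The relative differences were 0.80 and 0.87. The other germline genes on the list of those silenced by DNA methylation did not follow: of the 43 listed genes measured, 5 reached the minimum, and Stag3, a meiotic cohesin subunit, was at -0.33, Brdt, a testis bromodomain protein, at -0.17, and Dazl, an RNA-binding protein of germ cells, at -0.17.

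Tmprss5, a membrane serine protease, had a signal of 15.2 and 14.8 in SKO-L80A+Vc, against 12.9 and 11.8 in SKO-L80A, and 2.44 and 3.50 in Flag, with a mean of 0.76. Mbp, which encodes myelin basic protein, had 8.26 and 8.23 in SKO-L80A+Vc, against 6.62 and 7.08 in SKO-L80A, and 1.19 and 1.26 in Flag, with a mean of 0.74. Neither gene overlapped between SKO-L80A+Vc and SKO-L80A, and both are among genes with far more signal in the combined-factor conditions than in Flag. Adh7, a retinol-metabolising alcohol dehydrogenase, had 18.8 and 14.2 in SKO-L80A+Vc, against 16.8 and 12.6 in SKO-L80A, and its columns overlapped as signal, with a mean relative difference of 0.64. E2f2, a cell cycle transcription factor, was at 0.69, and Ptcd3, a mitochondrial translation protein, at 0.72. Aida and Brox, whose values were nearly equal in every column, were both at 0.73. They were the only pair of the 15 within 15% of each other in all 20 columns, so they may share a signal. Of the 15, 7 had both SKO-L80A+Vc columns above both SKO-L80A columns as signal, 4 more were higher in each column pair before centring but with overlapping columns, and the remaining 4 were higher in both pairs only after centring.

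**Figure D3:**
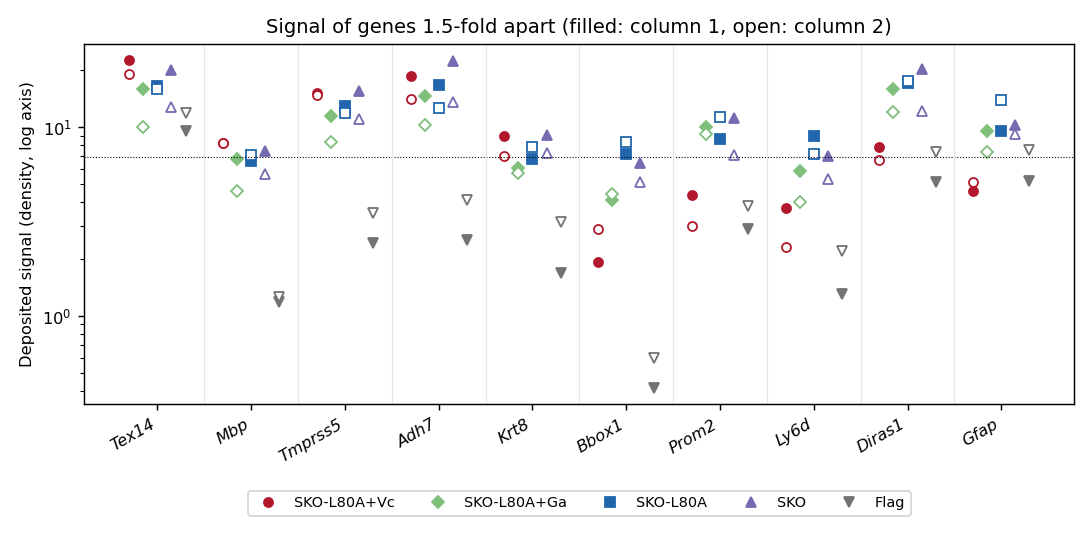
Signal on a log axis of 5 genes past 1.5-fold higher and 5 past 1.5-fold lower in SKO-L80A+Vc, in both columns of SKO-L80A+Vc, SKO-L80A+Ga, SKO-L80A, SKO and Flag (filled for column 1, open for column 2); the dotted line is the minimum signal of 6.92. The SKO-L80A+Vc points of Bbox1, Prom2, Ly6d, Diras1 and Gfap lie below those of SKO-L80A and SKO, and those of Tex14, Mbp and Tmprss5 above those of SKO-L80A. Of all genes at the minimum, 93.1% lie below SKO-L80A in this way.

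The factor genes were among those with lower signal. Pou5f1, which encodes Oct4, had 8.59 and 10.4 in SKO-L80A+Vc, against 15.4 and 27.5 in SKO-L80A, with relative differences of -0.49 and -0.77 that put it past 1.5-fold. Sox2, an HMG-box pluripotency factor, had 22.0 and 22.5 in SKO-L80A+Vc, against 38.5 and 51.8 in SKO-L80A, with -0.46 and -0.58. Klf4, a zinc finger factor, had 39.9 and 39.7 in SKO-L80A+Vc, against 62.6 and 83.5 in SKO-L80A, with -0.30 and -0.45. None of the 3 overlapped between SKO-L80A+Vc and SKO-L80A, as held for 93.1% of genes at the minimum, and by mean relative difference they ranked 40, 103 and 421 from the lowest of 12484. SKO-L80A+Ga, over the same SKO-L80A columns, had -0.38 and -0.56 for Pou5f1, -0.32 and -0.48 for Sox2 and -0.35 and -0.49 for Klf4. Reads over the factors' exons can come from the viral inserts as well as from the genes' own chromatin, and their part in these values was not tested.

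**Figure D4:**
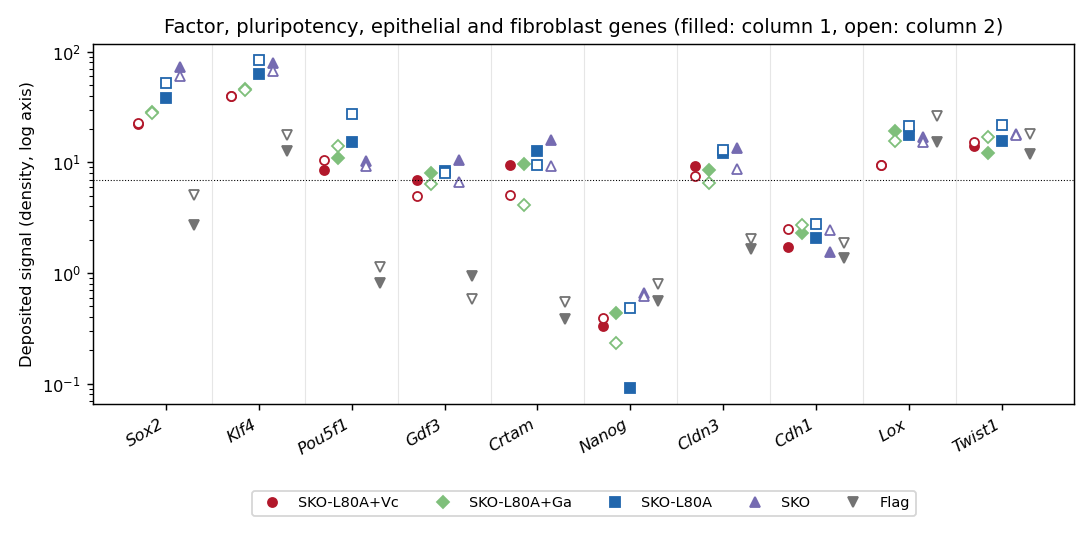
Signal on a log axis of the factor genes and of pluripotency, epithelial and fibroblast genes, in both columns of SKO-L80A+Vc, SKO-L80A+Ga, SKO-L80A, SKO and Flag (filled for column 1, open for column 2); the dotted line is the minimum signal. Pou5f1, Sox2, Klf4, Gdf3, Cldn3, Lox and Twist1 have both SKO-L80A+Vc points below both SKO-L80A points, as have 93.1% of genes at the minimum. Nanog stays under the minimum in each condition drawn.

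The rest of the pluripotency network gave no gene past 1.5-fold, beside 0.12% higher and 0.473% lower of all genes at the minimum, shares at which such a list can hold none. Of 39 genes 12 reached the minimum, 7 of these were lower and 0 higher in both pairs (50.5% and 12.5% of all genes at the minimum), and Pou5f1 was the only one past the fold. Nanog, the homeobox factor of the naive state, had 0.335 and 0.395 in SKO-L80A+Vc, against 0.0918 and 0.483 in SKO-L80A, below the minimum in both. Gdf3, a TGF-beta ligand of early embryos with a Flag signal of 0.933 and 0.585, had 6.88 and 4.98 in SKO-L80A+Vc, against 8.39 and 7.94 in SKO-L80A, a relative difference of 0.06 and -0.04. Fbxo15, an F-box gene used as a reporter of reprogramming, was at -0.13, and Utf1, a chromatin protein of stem cells, at 0.08.

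Fibroblast genes gave no call in either direction, beside 0.12% higher and 0.473% lower of all genes at the minimum, shares at which such a list can hold none. Of the 40 listed, 31 reached the minimum and 0 passed 1.5-fold. In both pairs 11 were lower and 7 higher, beside 50.5% and 12.5% of all genes at the minimum. The medians over all 40, like those of every list below, take in members under the minimum and are set against an all-gene median of 0; they were -0.02 and -0.03, or 0.05 and 0.06 with the trend removed. The farthest were Lox, lysyl oxidase, which crosslinks collagen, and Dcn, the matrix proteoglycan decorin. Lox had 9.399 and 9.46 in SKO-L80A+Vc, against 17.5 and 21.2 in SKO-L80A, 19.3 and 15.7 with Gadd45a and 17.1 and 15.4 in SKO, with relative differences of -0.54 and -0.53. Dcn had 4.46 and 3.22 in SKO-L80A+Vc, against 7.81 and 7.74 in SKO-L80A, a mean of -0.53. Both genes lay below their SKO-L80A columns without overlap, as did 93.1% of genes at the minimum. The mesenchymal transcription factors of the list differed among themselves: Meox2 was at 0.47, Zeb2 at 0.39 and Twist1 at 0.15, Snai1 and Snai2 were both at -0.02, Twist2 was at -0.12 and Prrx2 at -0.30. As to the labelled cell type, Col1a1, a main fibroblast collagen, had 18.1 and 14.5 in SKO-L80A+Vc, against 25.0 and 21.4 in SKO-L80A, and Vim, vimentin, had 39.4 and 32.5 in SKO-L80A+Vc, against 48.6 and 46.6 in SKO-L80A. Thy1, a fibroblast surface protein, was under the minimum, at 4.73 and 4.95 in SKO-L80A+Vc, against 6.79 and 5.44 in SKO-L80A.

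Epithelial genes, which open during the mesenchymal-to-epithelial transition of reprogramming, were mostly under the minimum, with 11 of 30 reaching it and medians of 0.07 and 0.20 over the 30. Krt8 (ENSMUSG00000049382, chromosome 15, 101996711 to 102004342), a keratin of simple epithelia, was the only one past 1.5-fold. It had 8.97 and 7.06 in SKO-L80A+Vc, against 6.75 and 7.86 in SKO-L80A, and 9.11 and 7.26 in SKO and 1.68 and 3.14 in Flag. Its columns overlapped as signal, and the relative differences were 0.75 and 0.47. Of the 11 at the minimum, 5 were lower and 3 higher in both pairs, beside 50.5% and 12.5% of all genes at the minimum. Those higher besides Krt8 were Perp at 0.19 and Pard6b at 0.06. Of the tight junction genes, Cldn6 was at -0.44, Tjp3 at -0.20 and Cldn3 at -0.09. Cdh1, which encodes E-cadherin, had 1.72 and 2.51 in SKO-L80A+Vc, against 2.08 and 2.80 in SKO-L80A, and Epcam 2.35 and 2.56 in SKO-L80A+Vc, against 1.41 and 3.46 in SKO-L80A, both under the minimum.

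None of the chromatin dioxygenases that use vitamin C had its own gene past 1.5-fold, beside 0.12% higher and 0.473% lower of all genes at the minimum. At these shares a list of this size can hold none. Of the 31 genes measured, 27 reached the minimum, 19 were lower and 1 higher in both pairs, beside 50.5% and 12.5% of all genes at the minimum, and the medians were -0.12 and -0.09, or -0.08 and -0.02 with the trend removed. Among the TET genes, Tet3 had 18.2 and 21.9 in SKO-L80A+Vc, against 30.2 and 36.0 in SKO-L80A, a mean of -0.24, Tet1 was at -0.08 and Tet2 at 0.02. Among the histone demethylases, Kdm2b, which acts on H3K36, was at -0.10, and Kdm3a, Kdm4a and Kdm4c, which act on H3K9, were at -0.09, -0.07 and -0.09. At the minimum the list ran from -0.30 for Riox1, a JmjC hydroxylase, to 0.04 for Kdm7a.

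The hydroxylases outside chromatin had 1 gene past 1.5-fold, Bbox1 as described, among 23 at the minimum, with medians of -0.06 and -0.11 over all 24 measured. P4ha2, a subunit of the collagen prolyl 4-hydroxylase, had 18.3 and 17.1 in SKO-L80A+Vc, against 28.8 and 32.8 in SKO-L80A, a mean of -0.31, whereas its relative P4ha1 was at 0.05. Egln2, a HIF prolyl hydroxylase, was at -0.27, and Egln1, its main relative in most cells, at 0.04. Within both pairs the members had different values, 1 lower and 1 near the all-gene median. Of the genes for uptake and recycling, 10 of 15 reached the minimum and none passed 1.5-fold: the glucose and dehydroascorbate carriers Slc2a1 and Slc2a4 were at 0.12 and -0.35, and Glrx, glutaredoxin, at -0.32. The ascorbate transporters Slc23a1 and Slc23a2 were under the minimum.

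The gene lists named in this paragraph held no gene past 1.5-fold, beside 0.12% higher and 0.473% lower of all genes at the minimum. At these shares lists of their size can hold none. Collagen genes, whose proteins the prolyl and lysyl hydroxylases modify, had 21 of 43 at the minimum, 0 past 1.5-fold and medians of 0.05 and 0.06. Among them Col6a3 was at 0.31 and the neighbours Col4a1 and Col4a2, which share a promoter region, at 0.23 and 0.22, while Col15a1 was at -0.38. Hypoxia response genes (26 at the minimum, medians -0.06 and -0.06), genes of the DNA methylation machinery (20, 0.01 and -0.09) and H3K9 methylation genes (22, -0.05 and -0.03) also had 0 past 1.5-fold. So did senescence and cell cycle barriers (24, -0.01 and -0.03), in which Cdkn2a and Cdkn2b, inhibitors of cell cycle kinases, were both at -0.16. AP-1 and TEAD factors, which keep fibroblast enhancers open, had 14 at the minimum, 0 past 1.5-fold and medians of 0.01 and 0.05. Housekeeping genes (25) had medians of 0.00 and -0.06.

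**Figure D5:**
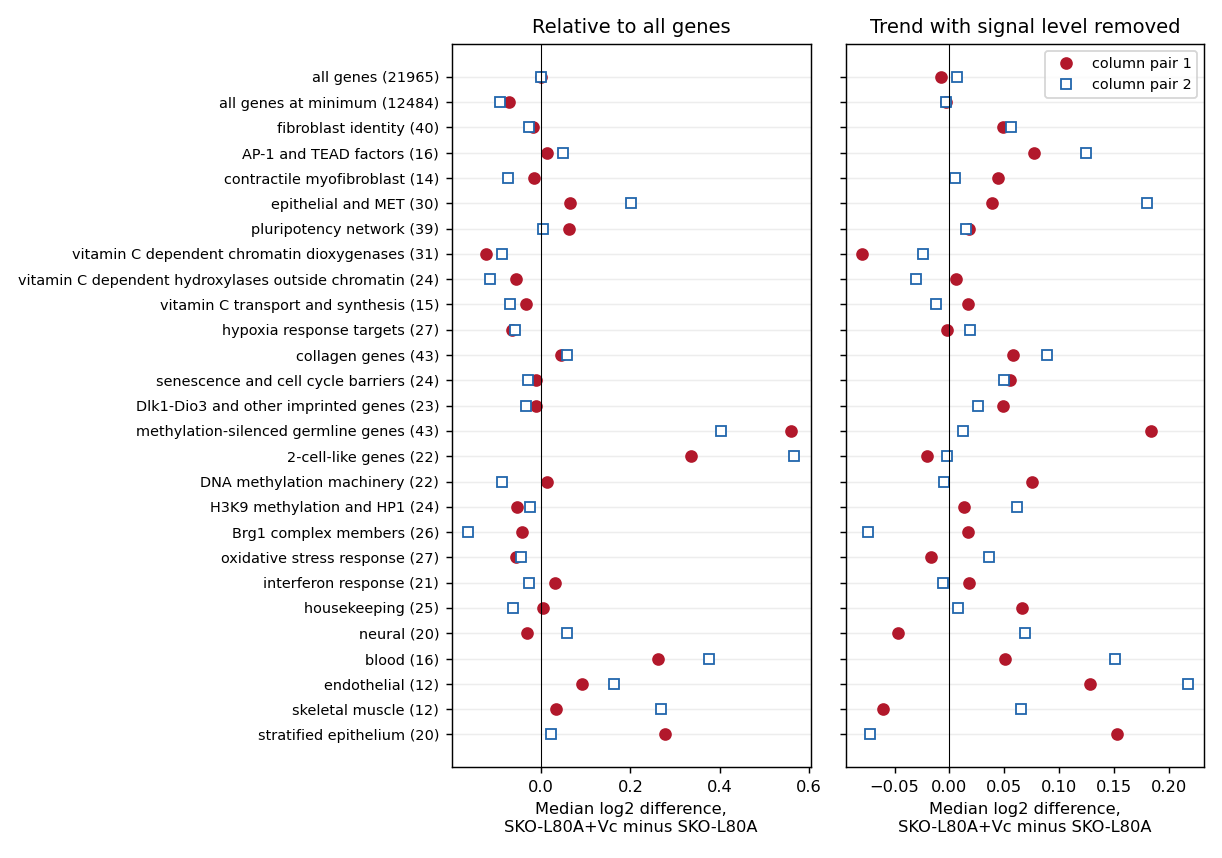
Median relative log2 difference, SKO-L80A+Vc minus SKO-L80A, over all measured genes of each list (their number in brackets) in column pair 1 (filled) and column pair 2 (open), beside all genes and all genes at the minimum, centred on all genes (left) and with the trend against mean signal removed (right). The list of Brg1 complex members lies at -0.04 and -0.16 and that of housekeeping genes at 0.00 and -0.06. The mostly closed lists of germline and 2-cell-like genes lie at 0.3 or more in the left panel.

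Several lists of mostly closed genes had higher relative medians, as had closed genes in general. Germline genes had 0.56 and 0.40 and 2-cell-like genes 0.34 and 0.57, but 0.18 and 0.01, and -0.02 and 0.00, once the trend with mean signal was removed. Olfactory receptor genes had 0.34 and 0.56, and -0.03 and -0.02 with it removed. The median signal in SKO-L80A+Vc and SKO-L80A was 0.031 and 0.030 for 2-cell-like genes and 0.157 and 0.164 for olfactory receptor genes. At such values the pseudocount draws the uncentred difference towards 0, so the medians of these 2 lists cannot show whether their accessibility differed. The lists of other cell types stayed low in signal: 2 of 16 blood, 4 of 12 endothelial and 0 of 12 skeletal muscle genes reached the minimum, and 0 genes of these 3 lists passed 1.5-fold. Their relative medians varied, at 0.26 and 0.38 for blood, 0.09 and 0.16 for endothelial and 0.03 and 0.27 for skeletal muscle genes.

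Flag signal entered the choice of genes past 1.5-fold only through the pseudocount and the minimum, which were taken from the whole table. Of the 59 lower genes, 42 (71.2%) had a mean Flag signal under the minimum, as had 7 of the 15 higher genes (46.7%) and 17.5% of all genes at the minimum. The lower genes reached the minimum through SKO-L80A, where they are high, so these shares compare unlike sets and no conclusion is drawn from them. As a description of values the choice did use, the median signal of the lower genes was 4.198 in SKO-L80A+Vc, 7.52 in SKO-L80A+Ga, 9.65 in SKO-L80A, 8.64 in SKO and 5.19 in Flag. These are therefore genes of low signal, since all genes at the minimum had a median of 13.4 in SKO-L80A+Vc and 19.95 in SKO-L80A, and the part of low signal in the size of their difference was not tested. Gadd45a added to SKO-L80A gave 1 gene past 1.5-fold higher (0.00801%) and 5 lower (0.04%) against the same SKO-L80A columns.

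Promoters of the lower genes were poor in CpG. Among those with 1 RefSeq entry, 28 of 35 (80%) had a ratio of observed to expected CpG under 0.6, against 3 of 9 higher genes (33.3%), 1728 of 7692 genes at the minimum (22.5%) and 551 of 1271 of these whose Flag signal was under the minimum (43.4%). Bbox1, Gfap (0.129) and Olfr433 (0.132) were among the CpG-poor ones, while Diras1 (0.753) and Zfp106 (0.807) were not. The Sox motif was in 28.6% of the 35 lower promoters and 12.7% of those at the minimum, and the GC box in 25.7% and 50.8%. These shares were not tested, and the lower genes differ from the others in signal level too.

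Genes with more signal in factor-infected cells were also followed as sets taken from libraries outside the comparison. The 274 genes at least 2-fold higher in SKO than in Flag had relative medians of -0.10 and -0.09 in SKO-L80A+Vc over SKO-L80A, with 3 past 1.5-fold higher (1.09%) and 9 lower (3.28%). The 157 genes 2-fold higher in Klf4 alone than in Flag had -0.18 and -0.10, with 0 higher and 8 lower (5.10%). All genes at the minimum had -0.07 and -0.09, with 0.473% past 1.5-fold lower, and the differences from them were not tested. The 19 genes 2-fold lower in SKO than in Flag had -0.44 and -0.27, with 1 higher and 1 lower.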

How the data were processed

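The deposited table holds a signal for 21965 Ensembl genes in 20 columns, 2 per condition, made by the authors from ATAC-seq libraries. Per the submitters' processing notes the build was mm10, with Bowtie2 2.2.5, MACS2 2.1.0, Trimmomatic 0.35, SAMtools 1.3.1, DESeq2 1.22.2, cutadapt 1.13, bedtools 2.25.0, Picard and deepTools named in no stated role. The counting window, the scaling between columns and the relation of both columns of a condition remain unstated in those notes and in the labels. Without read numbers in the table the depth is unknown, and no counting interval could be given.

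From the signal, log2 differences were computed with a pseudocount of 0.138, the 10th percentile of values above 0, as described in the report. Named genes were the 15 per direction with the largest smaller difference of both column pairs, up to 3 per gene list and direction, and a fixed set of genes (factors, dioxygenases, and pluripotency, fibroblast and epithelial genes); not every one is printed. Zfp106 and other genes past 1.5-fold are also named by their size, chosen after their values were seen, as are members of the lists named for their place in a list. The members, the 25 gene lists and the 10 families were chosen with earlier results of these data known. Gene symbols were matched to RefSeq GRCm38.p6 (20788 matched). Alternatives were other pseudocounts, centrings, pairings, thresholds, quantile normalisation and a lowess correction for mean signal (fraction 0.3, 3 iterations), called trend removal in the report. The procedure was tested on simulated data. Python 3.11.15, numpy 2.4.6, pandas 2.3.3, scipy 1.17.1 and statsmodels 0.14.6 were used.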

Additional observations from a re-analysis of the deposited data

How the results depend on the processing

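With 1 library per condition no alternative can supply replicate error. The number of genes 2-fold higher, 0 as reported, was 1 in column pair 1 alone, 4 in pair 2 alone, 414 with no minimum signal and 15 at 1.5-fold. The number 2-fold lower, 2 as reported, was 103 with no centring, 9 in pair 1 alone, 7 in pair 2 alone, 41 with no minimum and 59 at 1.5-fold. It was 1 with a pseudocount 4 times larger and with centring on genes at the minimum, and 0 after quantile normalisation, at 3-fold, and with 2-fold asked of each pair. The 15 genes 1.5-fold higher became 0 with no centring, 28 after quantile normalisation, 26 with the trend removed, 25 with centring on genes at the minimum, 25 in pair 1 alone, 2132 with no minimum and 6 with the fold asked of each pair. The 59 genes 1.5-fold lower became 5470, 15, 33, 32, 130 (pair 1), 249 and 26 under the same alternatives in the same order, and 143 in pair 2 alone. All 15 higher genes were kept under quantile normalisation and with the trend removed, and 15 and 33 of the 59 lower genes. With crossed columns, 12 of the 15 and 55 of the 59 were kept. The 2 genes past 2-fold kept their sign under each alternative run for them. Of the 25 list medians, the sign differed in 12 with the trend removed, 11 with no centring, 11 with centring on genes at the minimum, 10 after quantile normalisation and 4 or fewer otherwise. Of 162 named genes, the sign differed in 51 with no centring and in 7 or fewer under each of the other alternatives. Centring on genes at the minimum and the 1.5-fold counts under alternatives were added after seeing the data. The causes were not tested. Columns were paired by their number, but libraries could not be paired because each condition has 1.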

Other observations

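Relative to all genes, histone cluster genes were more often higher than lower in SKO-L80A+Vc, by count and with no test. As signal, their median was lower, at 13.9 in SKO-L80A+Vc against 18.3 in SKO-L80A. Of 67, 52 reached the minimum signal, 21 of these were higher and 11 lower in SKO-L80A+Vc in both column pairs, and none passed 1.5-fold. Over all genes at the minimum 1556 (12.5%) were higher and 6304 (50.5%) lower. The median relative log2 differences over all 67 were 0.00 and 0.05, or 0.06 and 0.11 with the trend against mean signal removed. Ribosomal protein genes, with 76 of 82 at the minimum, had 10 higher and 37 lower in both pairs and medians of -0.05 and -0.11 over all 82. Members of the Brg1 chromatin remodelling complex, with 25 of 26 at the minimum, had 2 higher and 14 lower and medians of -0.04 and -0.16. Hox genes, which set position along the body axis, had 14 of 40 at the minimum, 0 higher and 9 lower in both pairs, and medians of -0.03 and 0.01. The counts of ribosomal protein, Brg1 complex and Hox genes stand beside the same 12.5% higher and 50.5% lower, and differences from these shares were not tested.

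Imprinted genes had 15 of 23 at the minimum, 0 past 1.5-fold and medians of -0.01 and -0.03. Oxidative stress genes had 22 of 27 at the minimum, also 0 past 1.5-fold, and medians of -0.06 and -0.05. With 0.12% higher and 0.473% lower of all genes at the minimum, lists of these sizes can hold none. Interferon response genes had 12 of 21 at the minimum, 6 of these lower and 0 higher in both pairs, beside 50.5% and 12.5% of all genes at the minimum. Their medians over all 21 were 0.03 and -0.03.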
